A study of Mus musculus with 6 samples.

Results

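Transcripts of 2 linked routes of mitochondrial fuel use were followed in mouse muscle: the tricarboxylic acid (TCA) cycle, with 17 genes, and the breakdown of the branched-chain amino acids leucine, isoleucine and valine, with 20. The members were chosen by gene name, as probe sets whose platform symbol, current or older, is that of 1 of these 37 genes, out of 18193 genes with a named probe set on the array. Each transcript is read by probe sets, bundles of short oligonucleotides whose signals are combined, and the members had 81 of the 45037 that were tested. All 37 genes were found, with Mut under its current symbol Mmut. RNA came from muscle of 3 mice labelled wild type (WT) and 3 labelled SIRT6KO (KO), all on a 129SvJ background, with 1 Affymetrix Mouse Genome 430 2.0 array per mouse. SIRT6 is a sirtuin, an enzyme that uses NAD to remove acyl groups from histones. The sources used here do not say which muscle was taken, how old or of which sex the mice were, or how the gene was deleted. The comparison asks whether transcripts of either route differ between the 2 labels.

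In the TCA cycle, acetyl units join oxaloacetate to form citrate, which is oxidised step by step back to oxaloacetate while electrons pass to the respiratory chain. Pyruvate carboxylase refills the cycle. Muscle is a main site of the first step of branched-chain breakdown, in which a transaminase moves the amino group to 2-oxoglutarate. The branched-chain keto acid dehydrogenase (BCKDH) complex then commits the carbon skeleton to oxidation. A kinase switches the complex off and a phosphatase switches it on. The products enter the cycle as acetyl-CoA or, from valine and isoleucine, through propionyl-CoA as succinyl-CoA, so the routes meet.

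The promoters below belong to the 3 members whose KO arrays all lay above all WT arrays (Idh2, Bckdha and Ppm1k) and to Pcx, the TCA cycle member whose KO arrays all lay below. Each is the 250 bases before an annotated start in RefSeq's GRCm38.p6, read 5′ to 3′ on the gene's strand. Capitals mark short promoter motifs on either strand, with no overlap between them. The GC box, known to bind Sp1, was searched as GGGCGG. The motif of the factor NF-Y, called the CCAAT box, was searched by the letters of its name. The CACCC box, known to bind Krüppel-like factors, was searched as CCACCC.
Idh2 (chr7:80115351-80115600, minus strand): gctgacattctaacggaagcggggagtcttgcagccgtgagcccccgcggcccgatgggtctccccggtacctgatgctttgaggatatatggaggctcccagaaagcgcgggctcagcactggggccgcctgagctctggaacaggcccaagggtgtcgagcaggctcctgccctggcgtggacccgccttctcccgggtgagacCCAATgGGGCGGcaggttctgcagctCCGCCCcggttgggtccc
Bckdha (chr7:25658762-25659011, minus strand): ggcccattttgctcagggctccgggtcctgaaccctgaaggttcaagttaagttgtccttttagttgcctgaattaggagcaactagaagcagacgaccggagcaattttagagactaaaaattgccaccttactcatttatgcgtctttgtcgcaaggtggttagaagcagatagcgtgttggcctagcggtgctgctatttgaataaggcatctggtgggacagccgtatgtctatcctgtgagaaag
Ppm1k (chr6:57535488-57535737, minus strand): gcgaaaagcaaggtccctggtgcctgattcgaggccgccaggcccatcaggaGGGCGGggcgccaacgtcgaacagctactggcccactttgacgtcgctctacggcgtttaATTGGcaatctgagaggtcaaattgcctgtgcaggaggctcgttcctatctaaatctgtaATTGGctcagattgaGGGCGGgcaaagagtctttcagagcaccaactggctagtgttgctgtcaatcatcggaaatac
Pcx (chr19:4510222-4510471, plus strand): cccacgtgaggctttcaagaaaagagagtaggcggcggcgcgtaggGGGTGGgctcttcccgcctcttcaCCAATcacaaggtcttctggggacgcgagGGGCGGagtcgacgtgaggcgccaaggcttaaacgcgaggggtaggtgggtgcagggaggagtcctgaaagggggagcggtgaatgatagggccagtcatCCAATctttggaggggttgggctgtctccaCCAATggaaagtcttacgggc

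The Idh2 window holds a CCAAT box and 2 GC boxes within 44 bases of the start, and the Ppm1k window 2 of each. Pcx has 3 CCAAT boxes, a GC box and a CACCC box in the window shown, 1 of 2 listed for it. The other Pcx window has none of the 3 motifs, and which start was used in these samples was not examined. The Bckdha window has none of the 3 motifs and a GC content of 47.6%, against 67.2% for Idh2. Windows were found for 16 TCA cycle and 18 branched-chain members, 23 windows for each route. A GC box is in 14 of 23 TCA cycle windows and 10 of 23 branched-chain windows, against 32.7% of all 32851 windows. The median GC content was 60.8% in the TCA cycle windows and 54.4% in the branched-chain windows, against 52.4% in all, and its part in the GC box counts was not tested. A CCAAT box is in 13 and 14 of them in the same order, against 33.8%, and a CACCC box in 5 and 5, against 28.1%. The extended response element of oestrogen-related receptors (TNAAGGTCA, in 1.14% of all windows) and the palindrome bound by the glucocorticoid receptor (in 0.387%) were searched on both strands and matched no member window. A match here is a description of letters only.

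The arrays themselves set some limits. Median intensity lay between 10.8 and 15.0, and 51.7% to 60.3% of probe sets were below 16, the offset added before taking log2. Hybridization controls, transcripts added in known amounts, were 1.86 times as bright in WT replicate 1 as in WT replicate 2, while the KO arrays and WT replicate 3 lay between 0.977 and 1.01 times. All 17 TCA cycle members and 12 of 20 branched-chain members were brightest in WT replicate 1 among the WT arrays, and 16 and 19 were dimmest in WT replicate 3. Over all genes the median log2 distance from the WT mean had the same order, at 0.15, 0.00 and -0.14 in WT replicates 1, 2 and 3. Sirt6 read 23.2, 15.1 and 21.3 in the WT and 22.6, 18.3 and 13.7 in the KO arrays (probe set 1429631_at). Whether that probe set lies in the deleted part is not known, so it does not check the labels. Xist, the RNA of the inactive X chromosome, read 24.5 to 31.3 in WT and 715.4 to 1165.7 in KO arrays (probe set 1436936_s_at), and the Y-linked Eif2s3y read 44.5 to 77.1 and 1.1 to 4.1 (probe set 1417210_at). Genotype and sex therefore cannot be told apart in any difference given here. In whole tissue, fewer cells of a type and less RNA per cell cannot be told apart either.

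No member of either route passed the test. Limma, with p-values adjusted by Benjamini-Hochberg across the whole array, called 0 of 81 member probe sets, where it called 0.00888% of all of them. The lowest adjusted p of a member was 0.529. At an unadjusted p under 0.05 there were 9 of the 81, against 8.56% of all probe sets, so that share is close to the background in this fit. The member count was 19 with quantile normalization and 16 with each array centred on its median. The share of all probe sets was not counted in those settings. Of the 81, 4 had all KO arrays above and 7 all KO arrays below the WT arrays, against 12.3% of all probe sets in either direction. With each gene represented by its brightest probe set, 3 of 37 members were higher and 2 lower at an unadjusted p under 0.05, against 3.54% and 6.29% of all genes. By the same sets 3 of 37 members had all KO arrays above all WT arrays, against 4.51% of all genes, and 3 of 37 had them below, against 8.34%. Limma refitted to the 22518 probe sets above the median level kept 68 member probe sets and called 0 of them, where 0.351% of those tested were called. The lowest adjusted p there was 0.104, for Idh2. The 2 routes leaned in different directions on average: 13 of 17 TCA cycle members were lower in KO arrays (53.2% of all genes were) and 13 of 20 branched-chain members were higher (46.8% of all genes were). The lower TCA cycle members include the cytosolic Aco1, Idh1 and Mdh1, and Pcx, which refills the cycle. The lean was not counted without them.

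**Figure D1:**
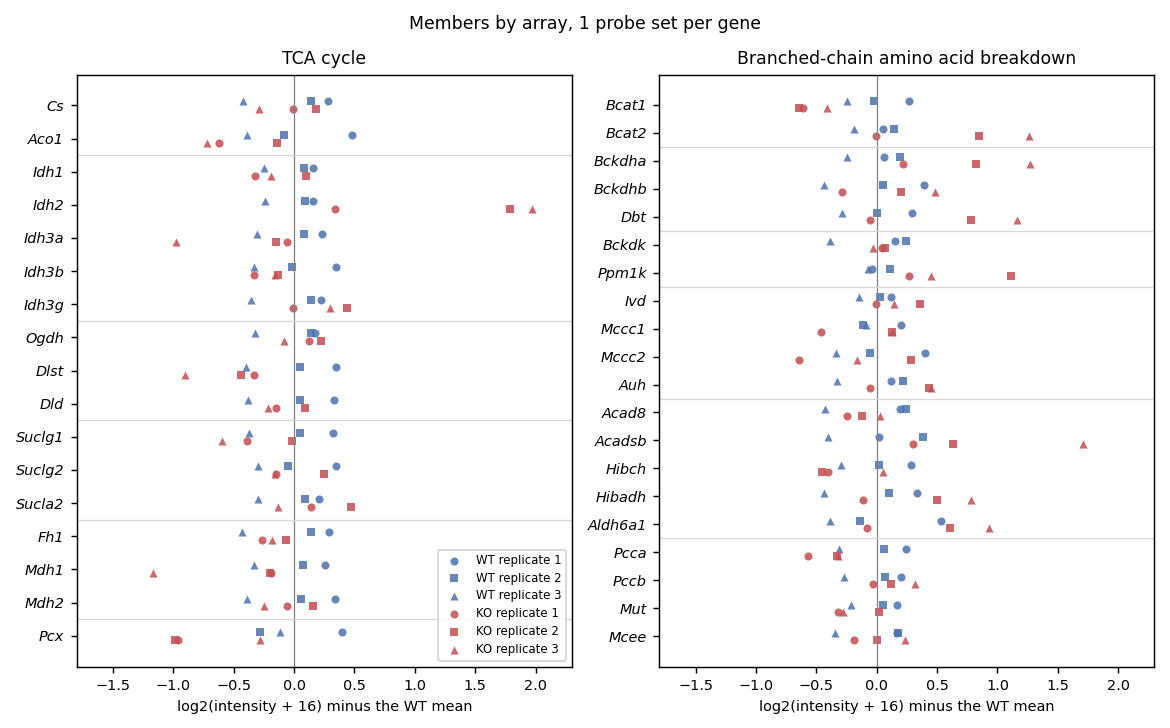
Each point is 1 array's log2(intensity + 16) minus the mean of the 3 WT arrays, for 1 probe set per gene; genes are grouped by role between the grey lines, with WT arrays in blue and KO arrays in red. Idh2, Bcat2, Bckdha, Dbt and Acadsb stand out on the right in KO replicates 2 and 3, while Dlst, Idh3a and Mdh1 stand out on the left in KO replicate 3.

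Idh2 had the widest difference of the 37 members. It encodes the NADP-dependent isocitrate dehydrogenase of mitochondria, which makes NADPH for antioxidant defence and is abundant in oxidative muscle and heart. Its probe set 1450048_a_at read 534.4, 507.8 and 400.4 in the WT arrays and 609.6, 1686.7 and 1912.6 in the KO arrays. All KO values lay above all WT values, but KO replicate 1 lay just outside the WT range while the other KO arrays were more than 3 times its upper end. The means were 481 ± 70.9 and 1403 ± 696 (SD, n = 3 each), a log2 difference of 1.37 ± 0.42 (SE) on the log2(value + 16) scale, or 2.58-fold (adjusted p = 0.532). Its other probe set, 1453601_at, read 15.0 to 21.1 and 17.2 to 34.5, near the offset. Leaving out each array in turn above the median level, settings chosen after seeing the data, Idh2 passed in 2 of 6. It passed without KO replicate 1 (3.67-fold, adjusted p = 0.000111), where 1350 of the 22518 probe sets were called, and without KO replicate 3 (2.09-fold, adjusted p = 0.0245), where 312 were. Of the 7 slow or oxidative fibre markers, all measured and none at 0, 6 were higher on average. Their sum was 2232 to 4574 in the WT and 2284 to 6736 in the KO arrays, with the median marker highest in KO replicate 2. Mb made up most of the sum in each WT array and was the 1 marker lower on average (2614 ± 797 and 1667 ± 513). Of the 6 that were higher, Tnnc1 had every KO array (205.7 to 801.4) above every WT array (69.6 to 199.2). The others overlapped. The part of these markers in the Idh2 values was not tested.

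The other isocitrate dehydrogenase genes had log2 differences between -0.39 and 0.24, and none passed. Idh1, the cytosolic enzyme, read 136 ± 21.8 in WT and 122 ± 21.0 in KO arrays. Idh3a, Idh3b and Idh3g encode the 3 kinds of subunit of the NAD-dependent enzyme that drives the cycle itself. Idh3a, its catalytic subunit, read 2136.1, 1929.5 and 1471.8 in the WT arrays and 1748.0, 1646.9 and 920.0 in the KO arrays. Only KO replicate 3 was below the WT range, and the log2 difference was -0.39 ± 0.28 (adjusted p = 0.74). All 4 Idh3a probe sets were lower on average, and at 1422500_at every KO array (98.8 to 193.6) was below every WT array (198.6 to 250). All 3 Idh3b probe sets were lower too, by 0.14 to 0.70 on the log2 scale, while both Idh3g probe sets were higher, at 0.24 and 0.31. Subunits of the same enzyme thus had different signs, and no probe set of them passed the test.

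At the entry of carbon into the cycle neither member passed. Cs, citrate synthase, read 2002 ± 484 and 1920 ± 312, a log2 difference of -0.04 with a 95% interval of -0.57 to 0.49. Aco1, the cytosolic aconitase that doubles as an iron sensor, read 174.4, 113.0 and 88.1 against 72.8, 108.5 and 67.2. KO replicate 2 lay within the WT range and the other KO arrays below it, and the difference was -0.49 ± 0.26 (adjusted p = 0.651). All 3 Aco1 probe sets were lower on average. The brightest is an x_at set, a type that can also match other transcripts.

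Pcx, pyruvate carboxylase, was the TCA cycle member with every KO array below every WT array. Probe set 1416383_a_at read 185.1, 110.0 and 124.3 in the WT and 62.4, 60.9 and 109.8 in the KO arrays, so KO replicate 3 nearly met WT replicate 2. The means were 139.8 ± 39.9 and 77.7 ± 27.8 (SD, n = 3 each), a log2 difference of -0.74 ± 0.26, or 1.67-fold lower (adjusted p = 0.562). Of the same 6 settings chosen after seeing the data, it passed in 1, without KO replicate 3 (1.97-fold lower, adjusted p = 0.046), where 312 probe sets were called. A further 4 probe sets for Pcx are manufacturer's controls that were left out of the test. The 3′ one of these read 129.7, 74.3 and 61.2 against 37.6, 37.8 and 54.9, also with no overlap, and the other 3 were dim and overlapped, with WT means of 26.3 to 33.6 and KO means of 14.8 to 24.4. Pcx is abundant in fat. Adipocyte markers, of which 6 of 8 were measured and none was at 0 in either group, summed to between 3139 and 6146 in WT and between 2379 and 4217 in KO arrays. Fabp4 made up most of the sum (3627 ± 1273 and 2919 ± 789) and overlapped. All 6 were lower on average on the log2 scale, but the linear mean of Cidec was slightly higher in KO arrays (73.7 and 75.4). Retn and Lep lay below every WT array in all KO arrays, though Lep was dim (7.1 to 19.1 in WT and 2.9 to 6.0 in KO arrays). The part of adipocyte markers in the Pcx values was not tested.

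None of the 3 members of the 2-oxoglutarate dehydrogenase complex passed, and the interval of each log2 difference included 0. Ogdh, the E1 subunit, read 1978 ± 357 and 2088 ± 219. Dlst, the E2 subunit that carries the succinyl group, read 637.8, 516.9 and 374.9 in the WT arrays and 394.4, 364.0 and 259.3 in the KO arrays. KO replicate 1 overlapped WT replicate 3, and the log2 difference was -0.56 ± 0.24 (adjusted p = 0.591). Of the 4 Dlst probe sets 3 were lower, while 1437775_at was higher on average (0.36). Dld, the E3 subunit shared with the pyruvate and branched-chain complexes, read 360 ± 90.6 and 330 ± 39.5.

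Succinyl-CoA synthetase, which makes ATP or GTP directly, showed no shared direction. Suclg1, the subunit common to both forms, read 1460.2, 1211.8 and 902.4 against 885.4, 1152.3 and 766.9. KO replicates 1 and 3 were below the WT range, and the difference was -0.34 ± 0.23 (adjusted p = 0.728). Sucla2, of the ATP-forming enzyme, read 1636 ± 290 and 1834 ± 385, and Suclg2, of the GTP-forming enzyme, 182 ± 46.1 and 178 ± 32.7.

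At the end of the cycle all 3 members were lower on average, by 0.05 to 0.52 on the log2 scale, and none passed. Mdh1, the cytosolic malate dehydrogenase of the malate-aspartate shuttle, read 1787.2, 1560.8 and 1183.3 in the WT arrays and 1299.8, 1291.3 and 650.9 in the KO arrays. KO replicate 3 alone was below the WT range (log2 difference -0.52 ± 0.30, adjusted p = 0.674). Of its 5 probe sets 4 were lower. Mdh2, the mitochondrial enzyme and the brightest member, read 3742 ± 926 and 3562 ± 522, and Fh1, fumarase, 972 ± 241 and 841 ± 58.4.

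**Figure D2:**
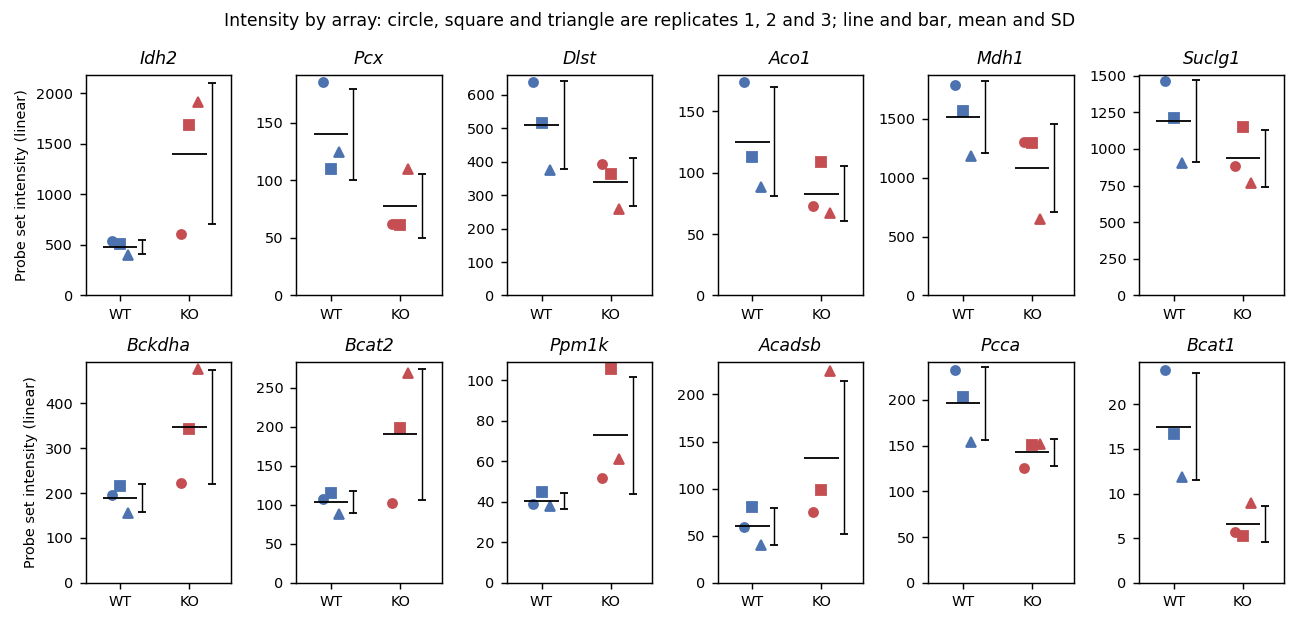
Probe set intensity on a linear axis from 0 for the 12 members given in full, TCA cycle above and branched-chain breakdown below, with WT arrays in blue and KO arrays in red, replicates 1, 2 and 3 as circle, square and triangle, and the mean and SD of 3 arrays as a line and a bar. KO replicate 1 lies near the WT arrays for Idh2, Bckdha and Bcat2, and the KO arrays of Idh2 span 609.6 to 1912.6.

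Of the transaminases that open branched-chain breakdown, 1 was higher and 1 lower on average, and neither passed. Bcat2, the mitochondrial transaminase of muscle, read 107.4, 115.6 and 88.6 in the WT arrays and 102.5, 198.6 and 269.8 in the KO arrays. KO replicate 1 lay among the WT values and the other KO arrays above them. The log2 difference was 0.70 ± 0.32 (1.62-fold, adjusted p = 0.602). Bcat1, the cytosolic transaminase of brain and growing cells, was the dimmest member, at 23.8, 16.7 and 11.9 against 5.7, 5.2 and 8.9 (probe set 1455699_at). Its groups did not overlap, but every KO value and 1 WT value were below the offset of 16, and the difference of -0.55 ± 0.17 (adjusted p = 0.529) moved to -1.26 with an offset of 1 and -0.20 with an offset of 64. All 3 Bcat1 probe sets were lower on average, and it is the 1 member whose brightest probe set was not kept above the median level. Fibroblast markers, all 5 measured and none at 0, summed to between 6072 and 10376 in WT and between 3050 and 6351 in KO arrays. Col1a1 (2834 ± 897 and 1170 ± 580) and Col3a1 (3827 ± 1078 and 2621 ± 1343) made up most of the sum. Every KO array was below every WT array for Col1a1 and Lum. The others overlapped, with Pdgfra higher on average in KO arrays (71.1 and 107.6). The part of these markers in the Bcat1 values was not tested.

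All 3 BCKDH subunit genes were higher on average, with a median log2 difference of 0.63, and none passed. Bckdha, the E1 alpha subunit that the kinase phosphorylates, read 195.5, 216.6 and 155.4 in the WT arrays and 221.3, 343.6 and 476.3 in the KO arrays. All KO arrays were above all WT arrays, with KO replicate 1 at the edge of the WT range. The means were 189 ± 31.1 and 347 ± 128 (SD, n = 3 each) and the log2 difference 0.77 ± 0.28 (1.71-fold, adjusted p = 0.563). Dbt, the E2 core, read 124.4, 98.7 and 78.1 against 93.9, 181.3 and 240.4, a difference of 0.63 ± 0.32 (adjusted p = 0.646), so that KO replicate 1 lay inside the WT range. Bckdhb, the E1 beta subunit, read 112 ± 35.8 and 123 ± 35.9, with an interval of -0.53 to 0.79 for its log2 difference.

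The switches of the complex differed from each other in their values. Ppm1k, the phosphatase that turns the complex on, read 38.8, 44.9 and 37.7 in the WT arrays and 51.8, 105.7 and 61.0 in the KO arrays (probe set 1452973_at). Every KO array was above every WT array, with the highest value in KO replicate 2 rather than KO replicate 3. The difference was 0.61 ± 0.23 (1.52-fold, adjusted p = 0.564), and its dimmer probe set had the same sign (0.27). Bckdk, the kinase that turns the complex off, read 275 ± 63.7 and 275 ± 10.01, a log2 difference of 0.03 with an interval of -0.42 to 0.47.

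With KO replicate 1 left out, limma above the median level called Bcat2 (2.08-fold, adjusted p = 0.0192), Bckdha (2.07-fold, adjusted p = 0.022), Dbt (1.96-fold, adjusted p = 0.036) and Acadsb (2.25-fold, adjusted p = 0.0283), beside Idh2. That setting, chosen after seeing the data, called 1350 of all 22518 probe sets, so many other genes shared it. It leaves 2 KO arrays. Over all probe sets without KO replicate 1, 0 members passed, with a lowest adjusted p of 0.0965 for Idh2 and 16 of 81 probe sets at an unadjusted p under 0.05. The share of all probe sets at that level was not counted without KO replicate 1.

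The 4 members of the leucine arm had log2 differences between -0.18 and 0.27, and none passed. Ivd, which oxidises isovaleryl-CoA, read 180 ± 18.2 and 203 ± 28.1. Auh, the hydratase of methylglutaconyl-CoA, read 281 ± 56.6 and 343 ± 67.1, and 3 of its 6 probe sets were higher. Mccc1 and Mccc2 encode the subunits of the biotin-dependent carboxylase that acts between them. Mccc1 read 120 ± 16.5 and 115 ± 28.7 at its brightest probe set, while its dim probe set 1458208_s_at read 16.9, 25 and 10.8 against 28.8, 42.9 and 44.5. In that dim set all KO arrays were above all WT arrays (log2 difference 0.71, adjusted p = 0.529), so the 2 Mccc1 probe sets disagreed. Mccc2 read 83.9 ± 26.3 and 73.5 ± 28.2 and was lower on average at all 3 probe sets.

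In the valine and isoleucine arm 3 of 5 members were higher on average, most of all in KO replicate 3. Acadsb, the short branched-chain acyl-CoA dehydrogenase of isoleucine breakdown, read 59.2, 80.1 and 40.0 in the WT arrays and 75.3, 98.3 and 225.4 in the KO arrays. KO replicate 1 lay inside the WT range and KO replicate 3 far above it (log2 difference 0.88 ± 0.38, 1.84-fold, adjusted p = 0.592). Its only probe set, 1455446_x_at, can also match other transcripts. Hibadh, which oxidises 3-hydroxyisobutyrate in valine breakdown, read 737.7, 624.8 and 425.9 against 538.9, 830.0 and 1012.1, and its second probe set was also higher (0.39 and 0.50). Aldh6a1, the last enzyme of that arm, read 246 ± 90.7 and 352 ± 121. Hibch and Acad8, earlier enzymes of valine breakdown, were lower on average, at 154 ± 33.3 and 125 ± 28.3 for Hibch and 94.2 ± 26.1 and 84.1 ± 9.92 for Acad8.

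The last steps, from propionyl-CoA to succinyl-CoA, had log2 differences between -0.41 and 0.14. Pcca, the biotin-carrying subunit of propionyl-CoA carboxylase, read 232.3, 203.3 and 153.6 in the WT arrays and 125.2, 150.6 and 151.9 in the KO arrays. The groups did not overlap, although KO replicate 3 missed WT replicate 3 by less than 2 units of intensity. The difference was -0.41 ± 0.18 (1.33-fold lower, adjusted p = 0.591), and its dim probe set 1447577_x_at had the other sign (0.24). Pccb, the partner subunit, read 284 ± 48.8 and 313 ± 40.5, opposite in sign to Pcca. Mut, the B12-dependent mutase, read 193 ± 27.5 and 166 ± 24.3, and Mcee, the epimerase, 147 ± 31.6 and 148 ± 23.8.

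**Figure D3:**
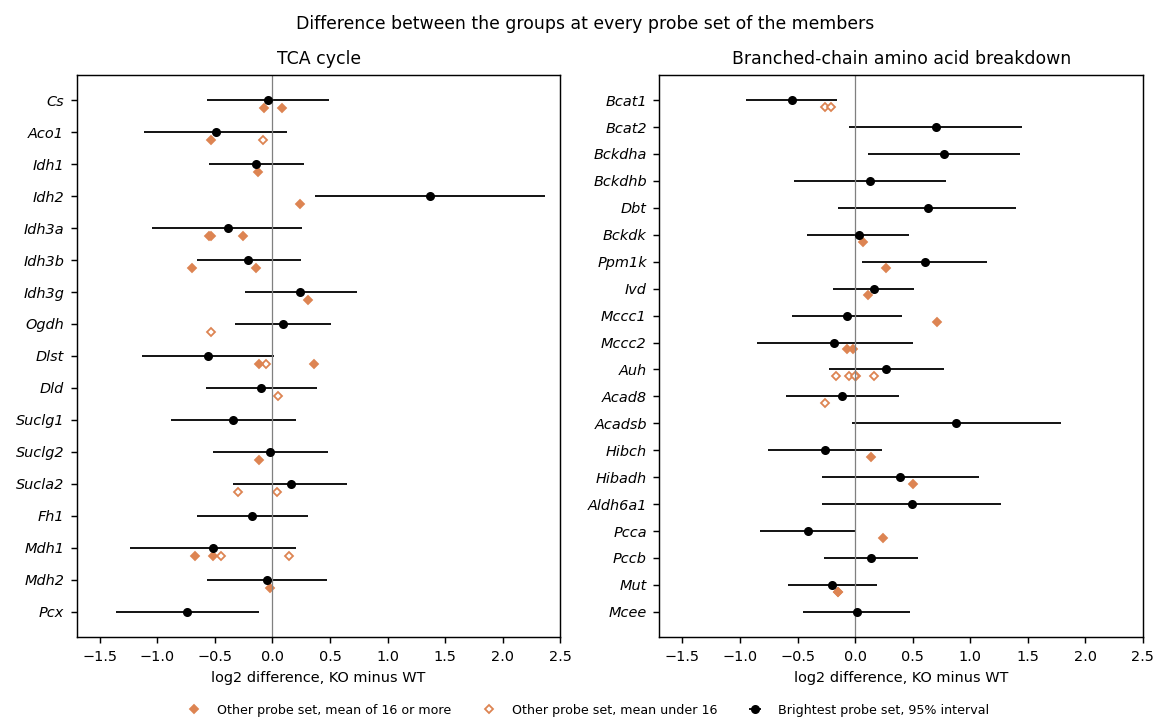
The log2 difference, KO minus WT, for every tested probe set of the members: black points with 95% intervals are the brightest probe set of each gene, filled diamonds other probe sets with a mean intensity of 16 or more, and open diamonds dimmer ones. The intervals of Idh2, Pcx, Bcat1, Bckdha and Ppm1k do not cross 0 before adjustment, and Mccc1, Pcca, Hibch and Dlst have a bright and a dimmer probe set of opposite sign.

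Of the 26 members with more than 1 probe set, 16 had all of them in 1 direction. Signals of some dim sets were near the offset: 63 of 81 member probe sets reached 16 on average, while 36 of the 37 brightest sets did so on every array.

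Set side by side, the routes parted in KO replicate 3 more than in any other array. The median log2 distance of the TCA cycle members from their WT mean was 0.29, 0.07 and -0.33 in the WT arrays and -0.15, 0.09 and -0.22 in the KO arrays. The same medians of the branched-chain members were 0.20, 0.07 and -0.30 in WT and -0.09, 0.24 and 0.28 in KO arrays. The gap between them, branched-chain minus TCA cycle, was -0.09, 0.00 and 0.02 in WT arrays and 0.06, 0.15 and 0.49 in KO arrays. The signed value was higher in every KO array than in every WT array, while by size the gap of WT replicate 1 was larger than that of KO replicate 1. Distances are taken from the WT mean, so WT gaps are centred near 0 by construction, while KO gaps are not. Members of a route are not replicates, and the gap was not tested.

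Within the KO group the order of the arrays differed between the routes. KO replicate 3 was the lowest KO array for 11 of 17 TCA cycle members and the highest for 14 of 20 branched-chain members, while KO replicate 1 was the lowest for 17 of 20 branched-chain members. This order was not counted over all genes. Their median log2 distances from the WT mean were -0.10, 0.03 and -0.01 in KO replicates 1, 2 and 3, so KO replicate 1 was lowest there too. Against the WT range, KO replicate 3 was above it for 12 and below it for 3 of the 20 branched-chain members, where over all genes it was above for 29.3% and below for 29.0%. For the 17 TCA cycle members it was above the range for 2 and below it for 6. KO replicate 1 lay within the WT range for 12 members of each route, and for 9794 of all 18193 genes. It was below the range for 4 of 17 TCA cycle and 6 of 20 branched-chain members, against 33.1% of all genes. Above it were 1 and 2, against 13.0%.

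**Figure D4:**
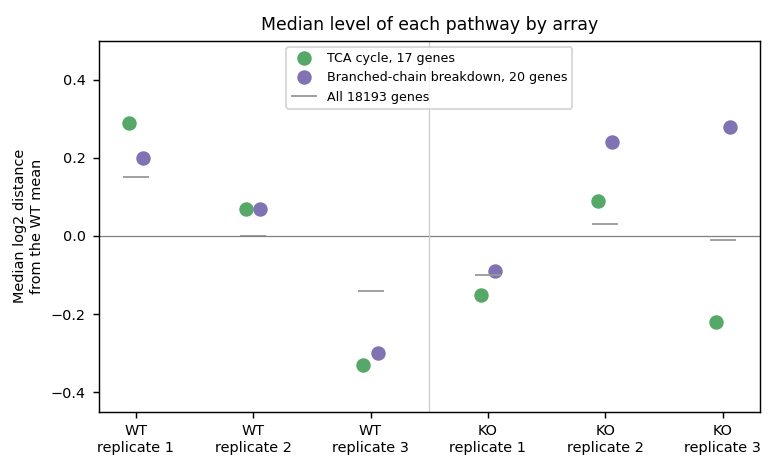
Median over genes of the log2 distance from the WT mean, by array, for the TCA cycle (green), branched-chain breakdown (purple) and all genes (grey dashes); WT arrays are on the left and KO arrays on the right. The points of the 2 routes lie within 0.1 of each other in each WT array and in KO replicate 1, and part to -0.22 and 0.28 in KO replicate 3. Taking distances from the WT mean centres the WT points around 0 by construction.

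Over the arrays the median log2 difference was -0.14 for the TCA cycle and 0.13 for branched-chain breakdown, against -0.02 for all genes. Both medians are smaller than the spread between arrays (pooled SD of 0.25 and 0.23). Without WT replicate 1, in which the hybridization controls and all TCA cycle members were brightest among the WT arrays, the TCA cycle median was -0.03, with 9 of 17 members lower. Without WT replicate 3 the branched-chain median turned to -0.04, with 10 of 20 higher. The gap between the medians was 0.27 and stayed above 0 without each array in turn, with the lowest value of 0.15 without KO replicate 3.

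Other genes of the routes, from lists of 23 and 31, were called in 0 cases over all probe sets among the 22 and 28 measured, with 2 and 5 at an unadjusted p under 0.05 by limma, where 3.54% of all genes were so and higher and 6.29% so and lower. Of the TCA cycle list 16 of 22 were lower on average (53.2% of all genes were) and of the branched-chain list 17 of 28 were higher (46.8% of all genes were). Oxct1, which takes CoA from succinyl-CoA to activate ketone bodies, had the lowest p of these. It read 2508.7, 1633.2 and 1501.5 against 697.6, 430.1 and 372.7, so that the groups lay far apart (3.71-fold lower, adjusted p = 0.342), and it fell in the test above the median level (adjusted p = 0.00724), as 1 of the 23 branched-chain genes kept there; 0 of 21 of the TCA cycle list did, and 0.351% of all probe sets tested there were called. Klf15, a transcription factor known to promote branched-chain breakdown in muscle, read 105.2, 84.1 and 41.1 against 104.8, 253.9 and 508.3 (adjusted p = 0.562). KO replicate 1 lay within the WT range and the other KO arrays above it; the part of Klf15 in the members' values was not tested. Slc7a8, an amino acid transporter, read 28.9 ± 3.69 and 67.7 ± 35.7, and Nnt, which makes mitochondrial NADPH as Idh2 does, 163 ± 36.5 and 326 ± 130. Both had every KO array above every WT array. Me1, malic enzyme of the cytosol, read 613 ± 115 and 393 ± 125, and Mmab, which makes the B12 cofactor of the mutase, 33.0 ± 4.65 and 16.4 ± 5.31, with every KO array below every WT array in both.

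Muscle markers, all 8 measured, summed to between 54689 and 89437 in WT and between 58936 and 62883 in KO arrays, so the defining genes of the labelled tissue were present in both groups. General mitochondrial genes, all 6 measured, summed to between 5143 and 7836 in WT and between 6060 and 6995 in KO arrays. Vdac1 made up most of that sum (3752 ± 840 and 4152 ± 402). Every KO array was below every WT array for Timm23 and Hspd1 and above for Tfam, and the others overlapped. Brown adipocytes are rich in both routes. Of their 6 markers, all measured, Ucp1 read 570.3 to 877.2 in WT and 129.9, 5.9 and 2.3 in KO arrays, and Cidea 429.9 to 824.0 and 135.8 to 191.2, while the other 4 overlapped. The brown adipocyte sum was 4891 to 8020 in WT and 3966 to 5040 in KO arrays. Most of it came from Cox8b (3437 ± 893 and 3168 ± 303) and Cox7a1 (1606 ± 359 and 1261 ± 315), which overlapped. The sum therefore follows Ucp1 and Cidea little. The part of brown adipocytes in the lower TCA cycle values was not tested.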

How the data were processed

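The authors deposited linear intensity values, 1 for each probe set of each array. Per the labels' protocols, the input was total RNA from a TriPure extraction, with a biotin label. The sources used here give no software, background correction or scaling. Of 45101 probe sets, 64 manufacturer's controls were left out and 45037 tested as log2(value + 16), with no further normalization, with limma 3.58.1 (lmFit and eBayes) in R 4.3.3, two-sided, Benjamini-Hochberg over all probe sets, threshold 0.05. The offset makes fold changes of dim probe sets too small. The test was checked on simulated data. Columns left unused numbered 0.

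Names came from the platform table (34945 probe sets with 1 symbol, 932 with several, 9160 not listed), updated through the mouse RefSeq gene table. A gene is represented by its probe set of highest mean. Given in full are members whose groups do not overlap and the 6 of lowest p in each route, 12 in all, and of other genes the 6 of lowest p; Dbt, Idh3a, Hibadh and the second Mccc1 probe set were added after their values were seen. Members and lists were chosen with earlier results of these data known. Labels call the samples biological replicates, so the p-values weigh each difference against the spread between replicate arrays. That spread includes differences in array brightness, since no further normalization was done. Only 3 arrays a group limits the precision.

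Marker lists for macrophages, endothelium, smooth muscle, Schwann cells (3 of 5 measured) and liver (3 of 4 measured) were also read. Their summed levels overlapped between the groups except for smooth muscle, at 584 to 898 in WT and 181 to 398 in KO arrays. Acta2 made up most of that sum, at 539.2 to 802.0 in WT and 105.4 to 340.2 in KO arrays. Myh11 had a log2 difference of 0.00, Tagln was higher on average (0.29), and Cnn1 was lower but under 16 on every array. Alternatives were other normalizations, offsets, variance models, a filter on dim probe sets, a replicate block and each array left out. Replicate numbers did not pair the samples: deviations of same-numbered arrays correlated at -0.057, 0.026 and -0.057.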

Additional observations from a re-analysis of the deposited data

How the results depend on the processing

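The count of changed probe sets over the whole array was 4, and 9 with quantile normalization, 11 with each array centred on its median, 1 with an offset of 64, 15 with a trended and robust variance and 79 above the median level. It was 0 with the replicate number as a block, which gives no pairing here, and 1 to 6 with each array left out. With the block, 13 member probe sets were at an unadjusted p under 0.05 by limma. The share of all probe sets at that level was not counted there. Settings combined after seeing the data, all above the median level, gave 28 (quantile), 41 (centred) and, with each array left out, 8 to 1350, with 67 for WT replicate 2 left out, 13 for KO replicate 2 and 312 for KO replicate 3. Member calls stayed at 0 in the 13 planned settings, and above the median level they ranged from 0 to 5 with each array left out: 5 without KO replicate 1 and 2 without KO replicate 3. The 12 members given in full kept their sign in every planned setting in which they were tested; Bcat1 was not kept above the median level. Their adjusted p lay between 0.0965, for Idh2 without KO replicate 1, and 0.955, for Suclg1. The TCA cycle median ranged from -0.29 to -0.03 and the branched-chain median from -0.04 to 0.23. Counting Dld with the branched-chain genes gave -0.16 and 0.13. Probe sets near the offset of 16, Bcat1 above all, carry little information on the size of a difference.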
